A study of Mus musculus with 6 samples.

Results

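The genes of MHC class II antigen presentation were followed in luminal progenitor cells of the mouse mammary gland. The list of 7 genes (Ciita, Cd74, H2-Aa, H2-Ab1, H2-Eb1, H2-DMa and H2-DMb1) was chosen from known members of the pathway after their values in these libraries, including the difference between genotypes, had been seen. Of the 7 genes, 6 had values among the 18537 genes measured. H2-DMb1 had no value among them, so only its promoter is described. The genotype differences of these genes are therefore given as a description. No p-value of that difference is printed for a single member. Members past a limit are counted beside the share over all genes, and nothing is read from those counts. Their relation to leukocyte genes was tested, though the gene lists were also chosen with earlier results of these data known. Those correlations span both genotypes, so they carry the differences seen before.

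Robo1 encodes a receptor for SLIT ligands, and the series asked which genes differ in luminal progenitors that lack it. Poly(A)+ RNA was sequenced from 3 Robo1+/+ libraries (gh03, gh09 and gh15) and 3 Robo1-/- libraries (gh06, gh12 and gh18), each made from the pooled cells of 2 animals. The mice were adult and nulliparous, came from crosses of Robo1+/- parents and are called littermates in the labels, and the Robo1-/- mice carry a null allele in every cell of the body, so the sorted cells and their neighbours lack Robo1 alike. Mammary cells were depleted of lineage-positive cells, among them those with CD45, the leukocyte protein that Ptprc encodes, and luminal progenitors were sorted as Lin-CD24loCD29+CD61+. Because the sources used here do not state whether the pools came from separate litters or days, the errors measure the spread between these pools.

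MHC class II molecules are paired alpha and beta chains that show peptides from the endosomal route to CD4+ T cells. The transactivator CIITA switches their genes on together through proteins bound to the X and Y boxes of their promoters, the invariant chain CD74 escorts newly made chains to the endosome, and the DM heterodimer exchanges the last piece of CD74 for a peptide. Dendritic cells, macrophages and B cells carry class II at all times, and epithelial cells can switch it on under interferon gamma.

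Some of the promoters of these genes carry the letters of the X and Y boxes, so they are shown before the values. RefSeq (build GRCm38.p6) gave promoter windows for 4 of the 7 genes (H2-Aa, H2-Eb1, H2-DMa and H2-DMb1) and for 4 related genes (H2-DMb2, H2-Oa, H2-Ob and H2-Eb2). In the 250 bases before the start, the letters GCAAC (the core of the X box) and TGATTGG (the Y box, bound by NF-Y) were sought on both strands. The 120 bases just before the start are shown for the pair of members in which both were found, for H2-Oa, which had the same layout, and for H2-DMa, which did not, with matches on either strand in capitals.
H2-Aa: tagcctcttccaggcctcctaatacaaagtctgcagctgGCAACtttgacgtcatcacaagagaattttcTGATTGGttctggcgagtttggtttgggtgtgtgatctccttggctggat
H2-Eb1: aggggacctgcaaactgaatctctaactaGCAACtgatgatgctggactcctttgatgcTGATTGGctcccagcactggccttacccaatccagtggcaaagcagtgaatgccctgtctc
H2-Oa: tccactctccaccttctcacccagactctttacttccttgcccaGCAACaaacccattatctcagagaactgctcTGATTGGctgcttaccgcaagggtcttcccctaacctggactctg
H2-DMa: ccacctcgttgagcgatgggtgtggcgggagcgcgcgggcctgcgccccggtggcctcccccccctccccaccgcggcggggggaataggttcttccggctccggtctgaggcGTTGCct

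These windows lie at chr17:34287824-34287943 on the minus strand for H2-Aa, and on the plus strand at chr17:34305747-34305866 for H2-Eb1, chr17:34092259-34092378 for H2-Oa and chr17:34122712-34122831 for the first of the 2 starts of H2-DMa. The X box core stood 26 bases before the Y box in H2-Aa, 25 bases in H2-Eb1 and 26 bases in H2-Oa, with the same order and strand, and H2-Ob and H2-Eb2 had it at 23 and 25 bases. Over all 32851 promoter windows, 29.9% held the X box core, 7.23% the Y box, and 0.183% the core followed by the Y box after 15 to 35 bases, a range set after the spacings had been seen. Of the letters sought, H2-DMb1 and H2-DMb2 held only those of the Y box, and the first start of H2-DMa only the core, on the other strand. The second start of H2-DMa held neither. Only exact matches were counted, so variants of either box would not be seen. A match describes the letters in these windows and says nothing of binding in these cells.

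The deposited value of a gene is its read count divided by a size factor for the library, called the normalized read count here. Between 9727191 and 17433868 reads were counted per library, and 1 read was worth between 0.784 and 1.46 normalized counts. The targeted gene Robo1 had 289, 574 and 541 normalized counts in Robo1+/+ against 130, 214 and 177 in Robo1-/- libraries, so the genotypes did not overlap and the Robo1-/- mean was 37.1% of that of Robo1+/+. Where on the transcript those reads lay is not given in the sources used here. Library gh18 stood apart: over 12453 genes, its log2 deviation from the other libraries fell with the GC content of the transcript (Spearman's rho across genes = -0.81), whereas the other libraries had rho between 0.17 and 0.61. The transcripts of the 6 class II genes had a GC content of 51.0% to 57.4%, above the median of 50.4% over the tested genes. The fold changes of the tested members are therefore also given without gh18 and after a correction for this trend.

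CIITA, the transactivator that turns the class II genes on, was barely detected. Ciita (chr16:10480237-10527657 in build NCBI37/mm9, as for the gene positions that follow) had 2.54, 2.35 and 7.50 normalized counts in Robo1+/+ libraries, which were 2, 3 and 8 reads. Robo1-/- libraries gave 5.75, 1.83 and 0, which were 5, 2 and 0 reads. The 0 in gh18 allows up to 3 reads, or 4.38 normalized counts. The genotypes overlapped, since gh06 exceeded gh03 and gh09, and a difference was not detectable at this depth.

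Cd74, the invariant chain, was lower in every Robo1-/- library than in any Robo1+/+ library. Cd74, on chromosome 18, had 91.6, 47.8 and 133 normalized counts in gh03, gh09 and gh15 (72, 61 and 142 reads). In gh06, gh12 and gh18 it had 27.6, 26.6 and 23.4 (24, 29 and 16 reads). The 3 Robo1-/- libraries lay close together, with a mean of 25.8 ± 2.23 (SD, n = 3) that was 28.4% of the 90.9 ± 42.7 (SD, n = 3) of Robo1+/+. On the scale of log2(value + 1), the difference was -1.66 ± 0.44 (SE, limma), and -1.59 without gh18. After the GC correction it was -1.14 and the genotypes overlapped, since gh18 then reached 5.81 on the log2 scale, above the lowest Robo1+/+ library at 5.26. In these bulk libraries, fewer cells that carry Cd74 and less Cd74 RNA per cell cannot be told apart.

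The beta chains of I-A and I-E followed the same order. H2-Ab1 (chr17:34400154-34406363), the I-A beta chain, had 20.4, 10.97 and 22.5 normalized counts in Robo1+/+ against 8.06, 4.58 and 1.46 in Robo1-/- libraries. H2-Eb1 (chr17:34442828-34453144), the I-E beta chain, had 19.1, 11.8 and 19.7 in Robo1+/+ against 3.45, 5.50 and 1.46 in Robo1-/- libraries. Both genes were lower in all 3 Robo1-/- libraries and lowest in gh18, where each rested on 1 read (exact Poisson 95% interval 0.0253 to 5.57 reads, counting error only). The Robo1-/- mean was 26.2% of that of Robo1+/+ for H2-Ab1 and 20.6% for H2-Eb1. The differences on the log2(value + 1) scale were -1.86 ± 0.61 and -2.07 ± 0.53 (SE, limma), and they were -1.35 and -1.70 without gh18 and -1.26 and -1.76 after the GC correction, where neither gene overlapped. Both genes passed the filter on low reads through the 3 Robo1+/+ libraries, in which they exceeded 0.755 CPM, and in no Robo1-/- library did they do so. Given that filter, a member of this kind had to be higher in Robo1+/+, and no count or median over the tested members is offered as support.

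The I-A alpha chain did not share this separation. H2-Aa (chr17:34406276-34424772, whose annotated end overlaps that of H2-Ab1 on the opposite strand) had 6.36, 7.84 and 16.0 normalized counts in Robo1+/+ libraries. Robo1-/- libraries had 5.75, 7.33 and 5.84. The genotypes overlapped, since gh12 exceeded gh03, and the higher Robo1+/+ mean of 10.1 ± 5.16 against 6.31 ± 0.887 (SD, n = 3 each) rested on gh15. H2-Aa stayed below the read filter, and its log2 difference of -0.51, or -0.15 without gh15, came from 4 to 17 reads per library. Whether the counting used the strand is not given in the sources used here, so reads in the overlap of H2-Aa and H2-Ab1 could have gone to either gene.

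H2-DMa, the alpha subunit of the peptide exchanger, was set apart by a single library. H2-DMa (chr17:34272127-34276046) had 24.2, 43.9 and 43.2 normalized counts in Robo1+/+ libraries. In Robo1-/- it had 34.5 in gh06 and 51.3 in gh12, both above the lowest Robo1+/+ library, but 4.38 in gh18. The log2 difference of -0.77 ± 0.86 (SE, limma) became -0.35 after the GC correction and 0.23 without gh18, so its direction turned on that library.

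**Figure D1:**
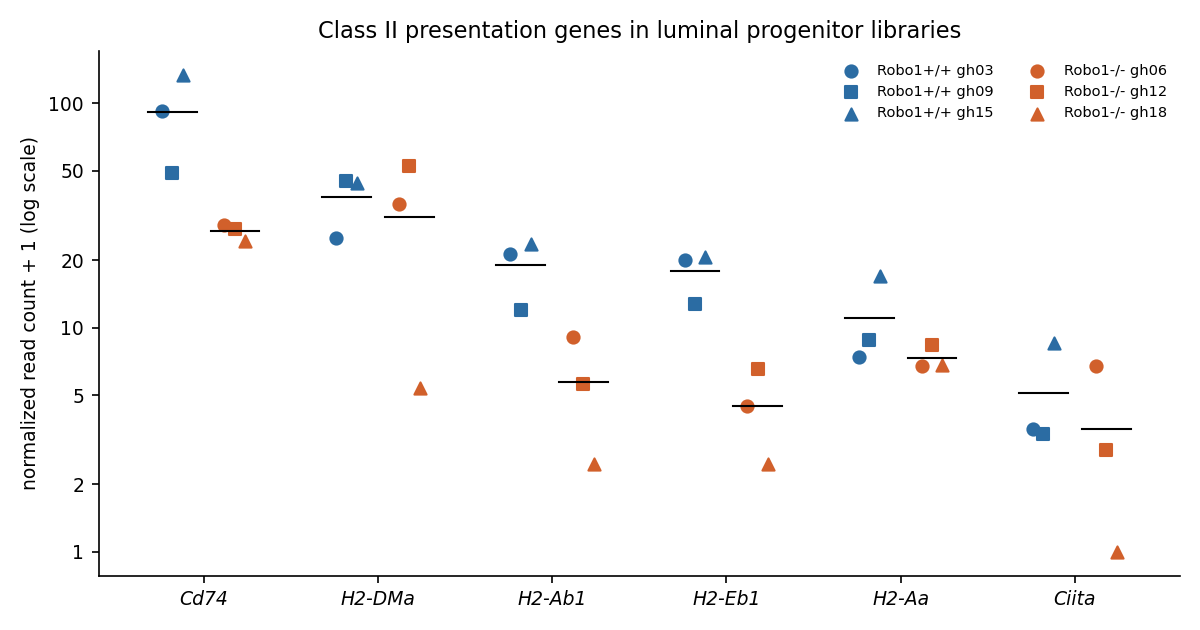
Normalized read count + 1 (log axis) of the 6 measured class II genes in each library; blue points are Robo1+/+ (gh03, gh09, gh15), orange points Robo1-/- (gh06, gh12, gh18), and bars are the means of 3 libraries. The orange points of Cd74, H2-Ab1 and H2-Eb1 all lie below the blue points, those of H2-Aa, H2-DMa and Ciita overlap them, and gh18 is the lowest library for 5 of the 6 genes.

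As a list, 6 of 6 measured members had a lower mean in Robo1-/- and 3 (Cd74, H2-Ab1 and H2-Eb1) did not overlap between genotypes. Across all 18537 genes, 4.37% were lower without overlap, and 4.58% of the 13692 genes past the read filter. The same 3 members had an unadjusted limma p under 0.05 with a log2 fold change below -1, as did 0.548% of the tested genes. At an adjusted p of 0.05, limma called no gene, members and Robo1 included (0% of 13692), with 231 genes at an unadjusted p under 0.05, edgeR called 0 with 221, and DESeq2 called 1 with 335. The median log2 difference was -1.23 over the 6 members and -0.01 over all 18537 genes, both with genes below the read filter included. Since the members were picked with these differences in view, nothing is read from the counts.

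**Figure D2:**
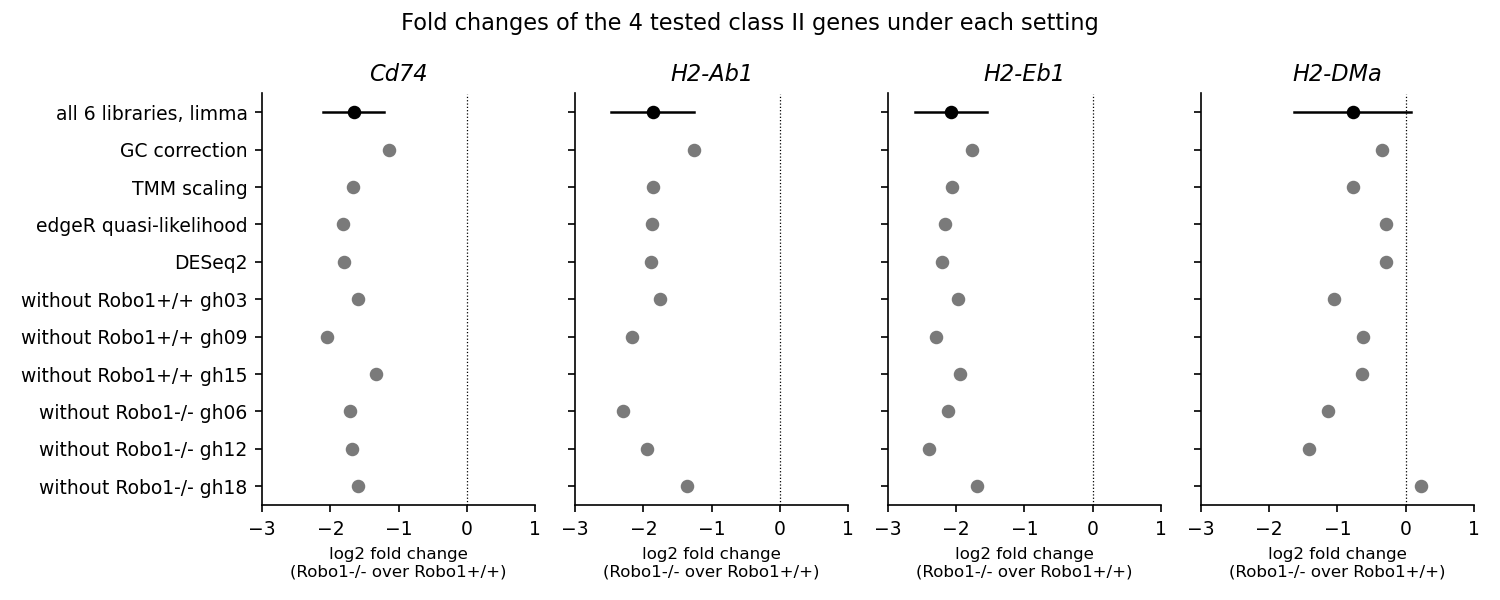
log2 fold change (Robo1-/- over Robo1+/+) of the 4 class II genes past the read filter; the black point with its bar is the limma estimate ± SE over all 6 libraries, and grey points are alternative settings and each library left out in turn. Cd74, H2-Ab1 and H2-Eb1 stay below 0 in every setting drawn, while H2-DMa moves from -1.41 without gh12 to 0.23 without gh18. H2-Ab1 has no point without gh15, since it was then below the read filter.

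Compared per kilobase of transcript and averaged over all libraries, Cd74 was the highest of the members and Ciita the lowest. The mean over 6 libraries was 41.4 normalized reads per kilobase for Cd74, 21.6 for H2-DMa, 9.35 for H2-Ab1, 8.62 for H2-Eb1, 7.22 for H2-Aa and 0.629 for Ciita. Cd74 exceeded H2-DMa in 4 of 6 libraries, without overlap in Robo1+/+ but with overlap in Robo1-/-. The chains of I-A and I-E could not be ordered, as H2-Ab1 exceeded H2-Eb1 in 3 of 6 libraries and H2-Eb1 exceeded H2-Aa in 3 of 6. H2-Aa lay above Ciita in 6 of 6 libraries. H2-DMa lay above H2-Ab1 in 5 of 6, with overlap in both genotypes. In Robo1+/+, Cd74 averaged 64.4 ± 30.3 per kilobase against 23.8 ± 7.19 for H2-DMa, and in Robo1-/- the means were 18.3 ± 1.58 and 19.3 ± 15.3 (SD, n = 3).

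Cd74, H2-Ab1 and H2-Eb1 varied together over the 6 libraries. The Pearson correlation of log2(value + 1) was 0.89 between Cd74 and H2-Ab1, 0.92 between Cd74 and H2-Eb1 and 0.94 between H2-Ab1 and H2-Eb1, and it was 0.95, 0.94 and 0.87 without gh18. Over all 15 pairs of members it ran from 0.35 to 0.94 with a median of 0.62, and without gh18 from -0.54 to 0.95. All 3 correlations of H2-DMa with Cd74, H2-Ab1 and H2-Eb1 were positive over 6 libraries (0.35, 0.64 and 0.61) and negative without gh18 (-0.35, -0.54 and -0.30). These correlations share libraries, genotype and GC trend and are given as a description. The 10 other tested genes with the highest mean correlation with the members were Ikbkb (0.84), Cyb5rl, Ramp3, Hcfc1, Zfp821, Unc5b, Apex2, Xpo6, Dnmt1 and Rapgef3 (0.82), among 51 genes at 0.8 or more. In all 10, gh15 was the highest library and gh18 the lowest, and 9 of the 10 had a transcript GC content above the median of the tested genes.

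Among the related class II genes, H2-Oa, the alpha chain of the DO protein that holds DM back, showed the same order of genotypes. It had 15.3, 10.97 and 10.3 normalized counts in Robo1+/+ against 6.91, 1.83 and 1.46 in Robo1-/- libraries. The genotypes did not overlap, with a log2 fold change of -1.77 ± 0.58 (limma adjusted p = 0.858) and -1.46 without gh18, and like the beta chains it passed the read filter in Robo1+/+ libraries only. H2-DMb2, a DM beta chain gene next to H2-DMb1 with a closely related sequence, had 17.8, 13.3 and 39.4 against 6.91, 41.2 and 11.7 normalized counts, which overlapped. Reads of near-identical copies may have been divided between the DM beta genes, since the rule for such reads is not given in the sources used here. H2-Ob, the DO beta chain, had at most 4 reads in any library but gh18, where it had 10.

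None of the factors that act with CIITA on the class II promoters passed a test. All 7 genes for RFX, NF-Y and CREB subunits passed the read filter, and 0 had an unadjusted limma p under 0.05, with a median log2 fold change of -0.08 beside 0.00 over all tested genes. Nfya, the NF-Y subunit that reads the Y box, had between 833 and 1035 normalized counts in Robo1+/+ and between 776 and 884 in Robo1-/- libraries, and Rfx5, which binds the X box, between 588 and 1013 and between 646 and 906. These genes were thus well measured where Ciita was not. Rfxank, another RFX subunit, had 319 to 350 normalized counts in 5 libraries and 83.2 in gh18, the library with the GC trend.

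Most of the proteases that prepare peptides, and the reductase, were well measured in both genotypes. Of 8 measured genes of class II processing, 6 passed the read filter and 0 had an unadjusted limma p under 0.05. Ctsb, Ctsd and Ctsl, the cathepsins B, D and L, had 4734 to 13252 normalized counts over the 6 libraries, and Ifi30, the lysosomal thiol reductase, had 749 to 856 in Robo1+/+ and 273 to 839 in Robo1-/-. Ctss, the cathepsin S that trims CD74, was the exception among the proteases, with 2, 3 and 1 reads in Robo1+/+ and 3, 7 and 0 in Robo1-/-. Without gh18, only Ctsl had an unadjusted p under 0.05, with a log2 fold change of 0.50 (limma).

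Upstream of CIITA lies interferon gamma, and 1 of its targets showed the order of genotypes seen for Cd74. Cxcl9, a chemokine induced by interferon gamma, had 26.7, 21.95 and 99.4 normalized counts in Robo1+/+ against 8.06, 5.50 and 10.2 in Robo1-/- libraries. The genotypes did not overlap, with a log2 fold change of -2.20 ± 0.64 (limma adjusted p = 0.858), -2.47 after the GC correction and -2.38 without gh18. Of 12 tested genes of the axis, Cxcl9 was the only one with an unadjusted limma p under 0.05, and the median log2 fold change was 0.07. Like the beta chains, Cxcl9 passed the read filter through the 3 Robo1+/+ libraries only, so it entered the test by way of the group in which it was high. Irf1, a transcription factor induced by interferon gamma, had 1597, 1783 and 1655 against 1678, 2428 and 1093 normalized counts, and the kinases Jak1 and Jak2 also overlapped. Neither the receptor chains Ifngr1 and Ifngr2 nor the kinases passed the test over 6 libraries, and without gh18 Ifngr1 (-0.44) and Irf2 (0.41) had an unadjusted limma p under 0.05.

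Class I presentation stood at another level altogether. All 15 class I genes passed the read filter, 0 had an unadjusted limma p under 0.05, and their median log2 fold change was -0.18, or 0.11 without gh18. H2-K1, a class I heavy chain, had 8958 to 9479 normalized counts in Robo1+/+ against 5024 to 10420 in Robo1-/- libraries, and B2m, the light chain, 6316 to 10191 and 6087 to 12930. Per kilobase, H2-K1 averaged 5536 normalized reads against 41.4 for Cd74. Without gh18, H2-T23 (0.74) and Psmb9 (0.47) had an unadjusted limma p under 0.05, both higher in Robo1-/-.

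Of 4 measured co-stimulatory genes that antigen-presenting cells use beside class II, Cd86 had at most 2 reads in any library. Icosl had 61.1, 39.2 and 52.5 normalized counts in Robo1+/+ against 24.2, 31.2 and 36.5 in Robo1-/- libraries, without overlap (log2 fold change -0.71 ± 0.36, limma adjusted p = 0.858). Cd274, an inhibitory ligand, was higher in every Robo1-/- library, with 47.2, 50.4 and 39.4 against 15.3, 38.4 and 32.8 (0.74 ± 0.44, limma adjusted p = 0.858). Cd40 overlapped widely, from 5.09 to 68.7.

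Whether the class II reads moved with reads of leukocytes was then examined, beginning with the markers themselves. Luminal epithelial genes were high in every library. Krt8 ran from 11182 to 43715, Krt18 from 11522 to 35214 and Epcam from 13014 to 18808 normalized counts, with gh18 the lowest for each, and 10 of 10 luminal progenitor markers passed the read filter. Genes of hormone-sensing mature luminal cells were also high, with Prlr at 20097 to 37136 and Areg at 11195 to 15050, and Pgr was higher in every Robo1-/- library (log2 fold change 0.76 ± 0.31, limma adjusted p = 0.858). Markers of other cells were lower but present. Their summed level was 322 to 1058 normalized counts for fibroblasts, 573 to 1883 for basal epithelium and 33.6 to 123 for endothelium. The luminal progenitor sum was 62554 to 119433, and Cd74 alone had 23.4 to 133. The sorted population thus held RNA of genes that mark mature luminal and other cells, and their part in the class II values was not tested.

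Ptprc, the gene of CD45, was at or near 0 in every library: 0, 0 and 1 reads in Robo1+/+ and 0, 0 and 1 reads in Robo1-/-. Cd74 had 16 to 142 reads in the same libraries. Of 16 measured pan-leukocyte genes, 10 had at most 3 reads in every library, among them Laptm5, Cd53, Coro1a, Tyrobp and Fcer1g. Only Lcp1 and Cytip passed the read filter, at 1427 to 2486 and 482 to 992 normalized counts, far above all other genes of the list. Vav1 had 2.54 to 9.41 normalized counts in 5 libraries and 60.5 in gh12.

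Most markers of the cell types that carry class II at all times were also sparse. All 7 measured B cell genes had at most 5 reads in any library, with Fcer2a, Cd79a and Cd79b the highest, and their summed level was 6.35 to 8.62 in Robo1+/+ and 4.38 to 8.05 normalized counts in Robo1-/-. Of 13 macrophage genes, Mertk, Cd68 and Csf1r passed the read filter, and the other 10 had at most 10 reads in every library. Cd68, a lysosomal protein of macrophages, had 86.5, 134 and 116 normalized counts in Robo1+/+ against 101, 111 and 65.7 in Robo1-/- libraries, and its 83.3 per kilobase lay above the 41.4 of Cd74. The macrophage sum ran from 216 to 386 in the Robo1+/+ libraries against from 184 to 565 in those of Robo1-/-, with its highest value in gh18, where Mertk reached 455. Csf1r, the receptor that defines the lineage, had 13.1 to 17.8 normalized counts in Robo1+/+ and 8.24 to 20.4 in Robo1-/-. Of 6 dendritic cell genes, only Zbtb46 passed the filter, at 67.4, 61.1 and 84.4 against 27.6, 5.50 and 86.1, which overlapped. Xcr1 had reads in every library (3, 7 and 7 in Robo1+/+ against 5, 8 and 5 in Robo1-/-). Batf3 had 2, 4 and 9 reads against 4, 3 and 0, while Itgax, Ccr7 and Siglech had at most 1 read in any library. Without gh18, Zbtb46 (log2 fold change -2.39) and the pan-leukocyte gene Cytip (-0.67) had an unadjusted limma p under 0.05, in the direction of Cd74. Among genes below the read filter, Itgam (4, 8 and 4 reads against 1, 1 and 2) was lower in every Robo1-/- library and Fcgr1 (0, 0 and 0 against 1, 2 and 1) higher, and the part of these genes in the class II values was not tested. Of 4 measured T cell genes, Lck, at 11.7 to 24.4 normalized counts, was the only one tested (log2 fold change -0.45, limma adjusted p = 0.858).

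**Figure D3:**
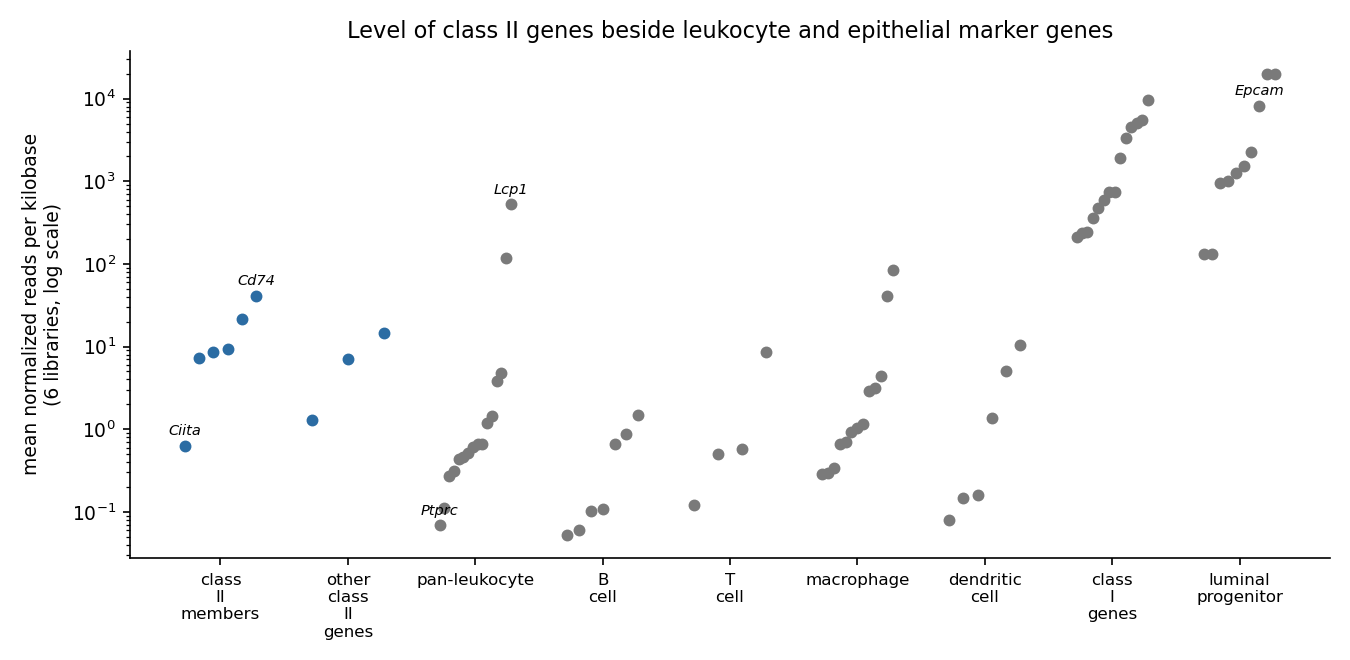
Mean normalized reads per kilobase over the 6 libraries (log axis), with each point a gene that has a transcript length, ordered by level within its list; class II genes are blue and other lists grey. Cd74, at 41.4 per kilobase, lies above all pan-leukocyte genes but Lcp1 and Cytip and below all class I and luminal progenitor genes, and Ptprc is the lowest of the pan-leukocyte genes.

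The ratio of Cd74 to leukocyte genes was not constant across libraries. For each normalized count of the summed pan-leukocyte genes there were 0.0281, 0.0159 and 0.0653 of Cd74 in Robo1+/+ against 0.0113, 0.0101 and 0.00702 in Robo1-/- libraries. The summed level of the list without Ptprc, Lcp1 and Cytip, a sum added after the values had been seen, was 24.1, 21.9 and 23.4 against 28.8, 80.6 and 13.1, and Vav1 alone made up 60.5 of the 80.6 in gh12. Cd74 relative to that sum was 3.79, 2.18 and 5.68 in Robo1+/+ against 0.96, 0.33 and 1.78 in Robo1-/- libraries, of which the 0.33 rested on Vav1. Relative to epithelial genes, there were 0.555, 0.268 and 0.822 counts of Cd74 for every 100 of Epcam in Robo1+/+ against 0.155, 0.141 and 0.179 in Robo1-/- libraries. For every 100 of Krt8 there were 0.255, 0.118 and 0.320 against 0.0632, 0.0631 and 0.209, and there gh18 exceeded gh09. All of these ratios carry the Cd74 values known when the members were chosen, so they describe the libraries and add no support to the difference.

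**Figure D4:**
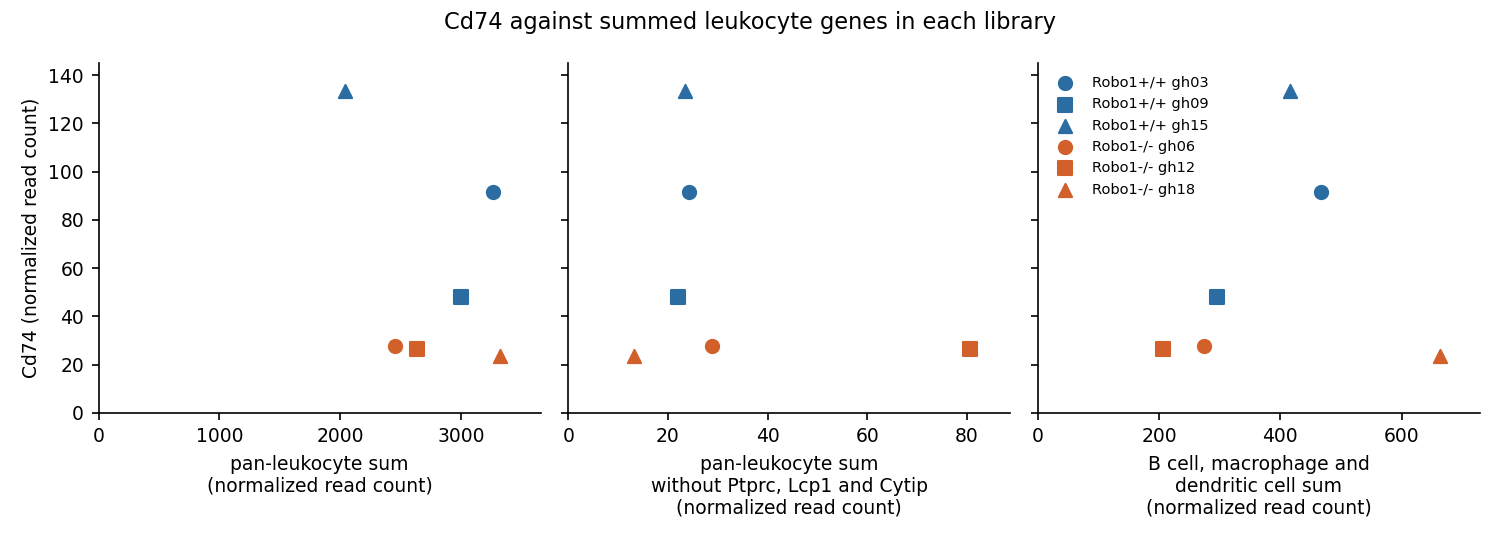
Normalized read count of Cd74 (y axis) against 3 summed sets of leukocyte genes (x axes, normalized read counts, linear from 0) in each library; blue points are Robo1+/+ and orange points Robo1-/-. Cd74 ranges from 47.8 to 133 in Robo1+/+ libraries that share a narrow range of the middle sum (21.9 to 24.1), while gh12, with the highest value there (80.6, of which Vav1 gave 60.5), has 26.6.

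Correlation gave no association that passed adjustment. Each of the 6 members was compared with Ptprc, the pan-leukocyte sum without Ptprc, the sum of B cell, macrophage and dendritic cell genes (the antigen-presenting sum), the class I sum and the luminal progenitor sum over the 6 libraries (30 comparisons, exact permutation of pairings). The lowest Benjamini-Hochberg adjusted p was 0.271 for Pearson's r and 0.875 for Spearman's rho, by exact permutation. With the pan-leukocyte sum, r was negative for 6 of 6 members, from -0.81 (Ciita) to -0.29 (H2-Eb1). Nearly all of that sum came from Lcp1 and Cytip (2486 and 826 of 3327 normalized counts in gh18, Ptprc included), so r mainly follows those 2 genes. With Ptprc, r ran from -0.68 to 0.33. Since Ptprc had 1 read in gh15, 1 in gh18 and 0 elsewhere, its 6 comparisons only set those libraries against the rest, and nothing is read from them. With the antigen-presenting sum r ran from -0.83 (H2-DMa) to 0.24 (Cd74), with the class I sum from -0.01 to 0.09 and with the luminal progenitor sum from 0.29 to 0.98. Several of these signs turned on the 2 libraries farthest from the median of the sum. Without them, r with the luminal progenitor sum was -0.87 (Cd74), -0.95 (H2-Ab1), -0.85 (H2-Eb1), -0.71 (H2-Aa), -0.51 (Ciita) and 0.19 (H2-DMa). With the antigen-presenting sum it was then 0.90, 0.96, 0.85, 0.38, -0.04 and -0.49 in the same order. Most of the antigen-presenting sum came from Mertk, Cd68 and Zbtb46 (455, 65.7 and 86.1 of 662.5 normalized counts in gh18). The B cell genes together gave at most 8.62, so r with that sum mainly follows a few genes.

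For Cd74, Pearson's r with the pan-leukocyte sum was -0.36 (exact permutation p = 0.474, adjusted 0.961) and Spearman's rho -0.49 (exact permutation p = 0.356, adjusted 1). Without the 2 libraries farthest from the median of that sum, r was 0.95 over the 4 that stayed, so its sign turned on those libraries. Without Lcp1 and Cytip in the sum, r of Cd74 was -0.18 (exact permutation p = 0.776) and rho 0.03 (exact permutation p = 1), and r over the 6 members ran from -0.18 to 0.68. That r was positive for 5 of the 6 members. In gh12, which had the highest such sum, Vav1 gave 60.5 of the 80.6 normalized counts. The only 2 comparisons with an unadjusted Pearson p under 0.05 by exact permutation were of H2-DMa. Its r was -0.83 with the antigen-presenting sum (exact permutation p = 0.0181, adjusted 0.271, rho = -0.83 with exact permutation p = 0.0583) and 0.98 with the luminal progenitor sum (exact permutation p = 0.0153, adjusted 0.271, rho = 0.83 with exact permutation p = 0.0583). Both rested on the 2 libraries farthest from the median of the sum, without which r was -0.49 and 0.19, and gh18 had the lowest H2-DMa and luminal progenitor sum and the highest Mertk. After each genotype's mean was subtracted, H2-DMa with the luminal progenitor sum was the single comparison past adjustment (r = 0.98, permutation p = 0.00139, adjusted 0.0417). Its r was 0.90 without the 2 farthest libraries, and rho was 1.00 (permutation p = 0.00278, adjusted 0.0833). These pairings were permuted across genotypes although the centred values cancel within each genotype, so the permutation is not exact. Nothing is read from these p-values. Within a genotype, 3 libraries are too few for a correlation.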

How the data were processed

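Luminal progenitor RNA of 3 Robo1+/+ and 3 Robo1-/- libraries was analysed, with genotypes taken from the labels. The authors deposited a normalized signal per gene: read counts divided by a size factor for each library. The study's methods state that reads were filtered against repeats with bowtie2 and mapped to NCBI37/mm9 with TopHat. DESeq2 is named there for normalization, whereas the submitters' processing notes list DESeq, and the counting tool, its strand setting and its rule for multiply mapped reads are not given in the sources used here.

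Whole reads were recovered by finding, in each library, the step of which all values are multiples. 100% of 18537 values per library came out whole, within 0.1 of a read plus rounding. Had the values been raw counts, edgeR would have been the main test. As they are normalized, limma (version 3.58.1, R 4.3.3) was fitted to log2(value + 1), with a mean-variance trend in its empirical Bayes step, over 13692 genes that filterByExpr retained on the recovered reads (minimum count 10), and p-values were adjusted by Benjamini-Hochberg. Fold changes on this scale understate those of low genes. On the recovered reads, edgeR (version 4.0.16) called 0 and DESeq2 (version 1.42.0) called 1 gene at an adjusted p of 0.05. With 3 libraries against 3, an exact permutation test cannot give a two-sided p below 0.1, so none is printed for single genes.

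The alternatives were pseudocounts of 0.5 and 5, all genes with a read, at least 10 reads in every library, TMM and upper-quartile scaling, each library left out in turn, and a GC correction. For the latter, a lowess curve (span 0.3) of the genes' log2 deviations on transcript GC content was taken off in every library, with GC content known for 91% of tested genes. Scripts were tested on simulated data. Positions, transcript lengths and GC content came from GENCODE M1 (NCBI build 37), by symbol.

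The members and gene lists were chosen with earlier results of these data known. Named genes were all members, Robo1, Ptprc and the 10 genes most like the members. Of the related class II lists, genes with an unadjusted p under 0.05 and at most 4 others of the highest mean in each were named. The 3 highest genes were named for the pan-leukocyte, B cell, macrophage, dendritic cell and luminal progenitor lists. Other genes named were chosen after their values were seen. The lists for endothelium, fibroblasts and basal epithelium had 2 of 7, 6 of 7 and 8 of 8 measured genes past the filter, and 0 with an unadjusted limma p under 0.05. No molecular identifiers marked the reads, which may be copies of the same molecule, so limits of 3 reads and Poisson intervals cover counting error only.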

Additional observations from a re-analysis of the deposited data

How the results depend on the processing

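No paired analysis was possible because the library names of the 2 genotypes share no number and the labels do not say which pools shared a litter or day, so whether they were paired is unknown. Cd74, H2-Ab1 and H2-Eb1 kept a negative log2 fold change in every alternative in which they were tested, and H2-DMa did so in all but 1, with values from -1.41 to 0.23 when each library was left out and its positive value without gh18. H2-Ab1 was not tested without gh15. With at least 10 reads required in every library, 1 member (Cd74) rather than 3 had an unadjusted p under 0.05 and a log2 fold change below -1, because H2-Ab1 and H2-Eb1 were no longer tested. The number of all genes past those limits, 75 in the limma fit, was 192 for all genes with a read, 46 with at least 10 reads in every library, 24 after the GC correction and 116 with DESeq2. It ran from 43 to 584 when each library was left out: 43 without gh15, 584 without gh06 and 122 without gh18, and the cause was not tested. At an adjusted p of 0.05, DESeq2 called 1 gene and the other fits 0. Of 30 correlations, 1 passed adjustment after subtracting genotype means (permutation of pairings, adjusted p = 0.0417) and 0 passed in the other settings. For centred values that permutation is not exact, so nothing is read from that pass. Low reads limit Ciita, H2-Aa, H2-Ab1 and H2-Eb1, for which single libraries held 0 to 24 reads.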
